A study of Zea mays with 192 samples.

Results

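Of the 41075 gene models measured in single maize leaf protoplasts, 7 were chosen by gene ID as markers of the mesophyll and bundle sheath cells of C4 photosynthesis. Those listed for mesophyll were ppdk1 (GRMZM2G306345, pyruvate orthophosphate dikinase), pep1 (GRMZM2G083841, phosphoenolpyruvate carboxylase), mdh6 (GRMZM2G129513, NADP-malate dehydrogenase) and GRMZM2G121878, which has no informative name in the reference table used here. Those listed for bundle sheath were me3 (GRMZM2G085019, NADP-malic enzyme) and a pair of genes for the small subunit of Rubisco, GRMZM2G113033 and ssu1 (GRMZM2G098520), both also named rbcS. The reference gives ppdk1 the further names C4ppdkZm1 and cyppdkZm1, after a chloroplast and a cytosolic form of the enzyme made from that locus, and the form was not determined here.

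The leaf of maize divides C4 photosynthesis between these cell types. In mesophyll cells phosphoenolpyruvate carboxylase fixes carbon into a C4 acid, NADP-malate dehydrogenase reduces it to malate, and pyruvate orthophosphate dikinase restores the acceptor. In bundle sheath cells NADP-malic enzyme releases carbon dioxide from malate, and Rubisco fixes it again. Many of these genes are known to be raised by light.

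The cells were single protoplasts from leaves of the wild-type inbred line B73, collected from more than 10 seedlings per isolation that had been kept in the dark for 10 to 12 days at 25 degrees C. They had been transfected with pooled constructs of either pre-meiotic transcription factors (96 cells, the pre-meiotic pool) or bHLH factors (96 cells, the bHLH pool). The cells used here include no untransfected control group, and whether each cell took up a construct was not examined. The constructs were meant to express possible regulators of anther phasiRNAs in a tissue that normally lacks them. Polyadenylated RNA was counted at its 3' end with unique molecular identifiers (UMIs), so a level needs no correction for gene length, and TPM here means UMIs per 1000000 UMIs of the cell. Since separate transfections are not given, each pool is 1 sample. No difference between pools or between cells was tested, and every interval is a 95% interval for counting error only. Total UMIs per cell ran from 953 to 88243 (median 26488) in the pre-meiotic pool and from 4699 to 148894 (median 28577.5) in the bHLH pool. Cells with fewer than 2000 genes numbered 22 in the pre-meiotic pool and 2 in the bHLH pool.

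ppdk1 was seen in most protoplasts of both pools, me3 in about 1 cell in 4, pep1, GRMZM2G121878 and mdh6 in fewer, and the rbcS genes almost nowhere. In the pre-meiotic pool ppdk1 had a UMI in 76.0% of cells (interval 66.3% to 84.2%), and in the bHLH pool in 72.9% (62.9% to 81.5%). Only 1.20% of gene models were seen in at least as many cells as ppdk1 in the former pool, and 2.56% in the latter. The median gene model was seen in 3 cells of each pool. Every gene model counted here had a UMI in some cell of the series, so these shares are over detected models. The next gene, me3, had a UMI in 25.0% (16.7% to 34.9%) and 26.0% (17.6% to 36.0%) of cells.

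**Figure D1:**
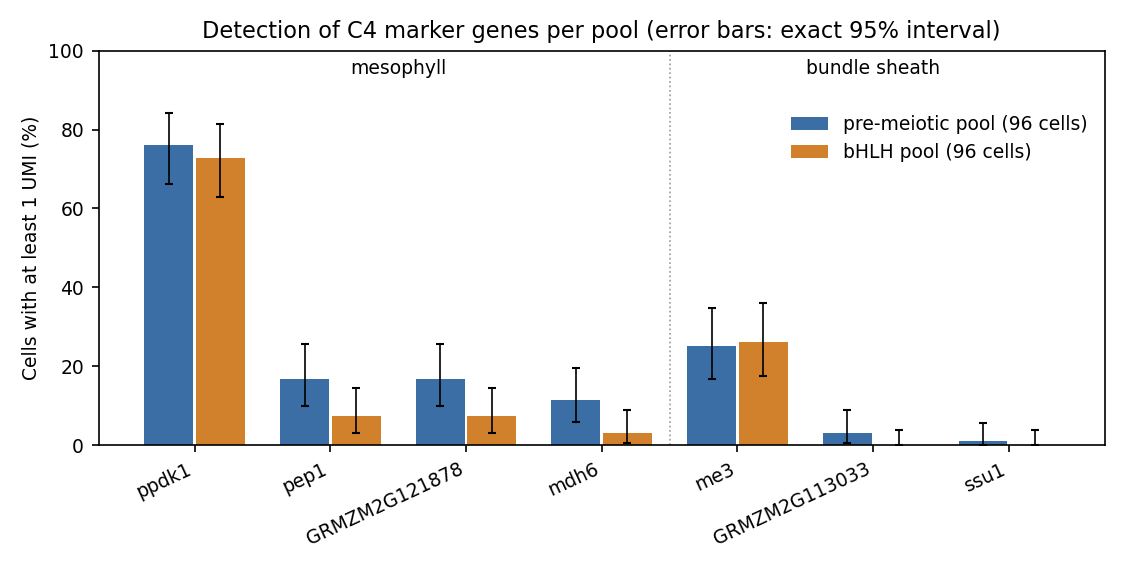
Percentage of the 96 cells of each pool with at least 1 UMI of each gene, with exact Clopper-Pearson 95% intervals as error bars. The ppdk1 bars stand at 76.0% and 72.9%, the me3 bars at 25.0% and 26.0%, and the remaining genes at or below 16.7%.

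By summed UMIs the order of levels followed the order of detection, in which pep1 and GRMZM2G121878 were tied. By the mean of TPM over cells, GRMZM2G121878 stood above pep1 in the pre-meiotic pool (11.2 against 6.86 TPM). In the bHLH pool it stood below pep1 (2.02 against 3.09 TPM). Summed over the pre-meiotic pool, ppdk1 had 321 UMIs, or 106 TPM of all UMIs (94.7 to 118). me3 followed with 41 UMIs (13.5 TPM, 9.71 to 18.4), pep1 with 22 (7.26 TPM, 4.55 to 11.0), GRMZM2G121878 with 20 (6.60 TPM, 4.03 to 10.2) and mdh6 with 11 (3.63 TPM, 1.81 to 6.50). Below ppdk1 each gene's interval overlapped that of its neighbour in this order, while the interval of me3 lay above that of mdh6. Overlap of separate intervals cannot show that neighbours have the same level, and no gene was tested against its neighbour. The bHLH pool had 307 UMIs of ppdk1 (93.8 TPM, 83.6 to 105), 36 of me3 (11.0 TPM, 7.70 to 15.2), 9 each of pep1 and GRMZM2G121878 (2.75 TPM, 1.26 to 5.22) and 3 of mdh6 (0.92 TPM, 0.19 to 2.68). Here the interval of me3 lay above those of pep1, GRMZM2G121878 and mdh6, which overlapped each other.

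Among the mesophyll genes, ppdk1 alone gave several UMIs in many cells. Its level in single cells of the pre-meiotic pool ran from 0 through a median of 69.1 to 1137 TPM, with quartiles of 23.2 and 166 TPM. In the bHLH pool it ran from 0 through a median of 66.5 to 410 TPM, with an upper quartile of 152 TPM. The ranges overlapped, and the medians lay close together. At least 5 UMIs were found in 22 and 25 cells, and a single UMI in 24 and 19.

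The highest ppdk1 level of each pool came from a cell below its pool's median depth. The 1137 TPM in the pre-meiotic pool were 2 UMIs in a cell of 1759, and the 410 TPM in the bHLH pool were 5 UMIs in a cell of 12182. In the 59 cells of the pre-meiotic pool with at least 20000 UMIs, the level ran from 0 to 445 TPM with a median of 54.4. In the 64 such cells of the bHLH pool, it ran from 0 to 367 TPM with a median of 76.0. Well-covered cells thus still differed widely. No ppdk1 UMI was found in 13 and 12 of them, and the deepest of these cells, with 62799 and 47266 UMIs, allow levels of up to 47.8 and 63.5 TPM by a limit of 3 UMIs per cell. The cells with the most ppdk1 UMIs held 20 and 21.

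**Figure D2:**
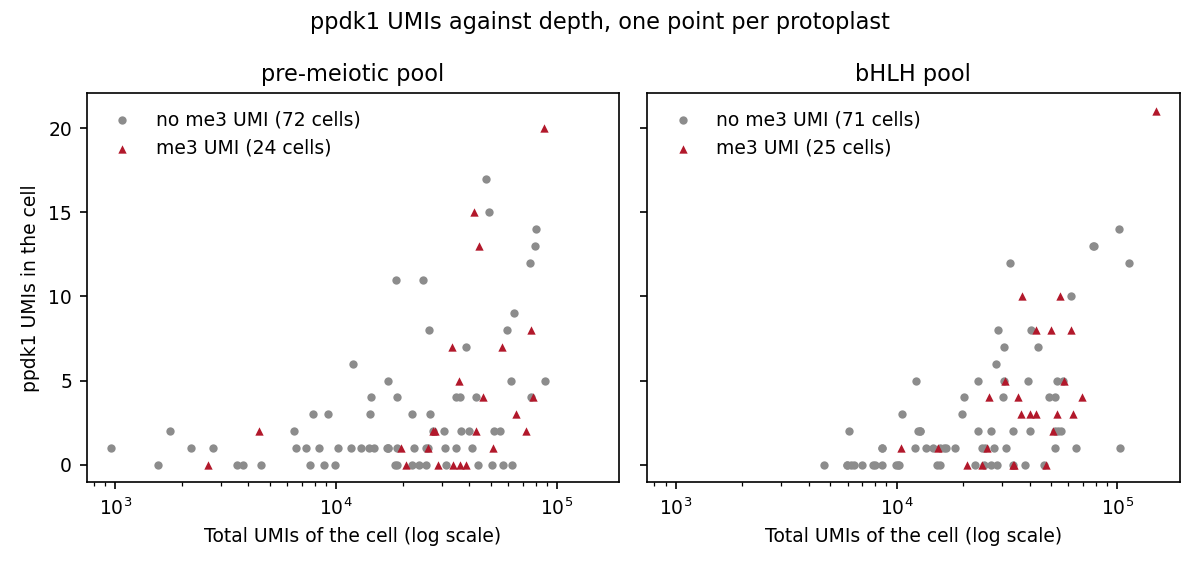
ppdk1 UMIs of each protoplast against its total UMIs on a log scale, one point per cell, with triangles for cells that also had a UMI of me3. Cells without a ppdk1 UMI reach up to 62799 total UMIs in the pre-meiotic pool and 47266 in the bHLH pool, and me3 cells lie among cells with and without ppdk1.

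The other mesophyll genes were seen as 1 or a few UMIs. A UMI of pep1 was found in 16 cells of the pre-meiotic pool and 7 of the bHLH pool, and 12 and 5 of these had a single one. The cell richest in pep1 had 4 UMIs, in the pre-meiotic pool. GRMZM2G121878 also had UMIs in 16 and 7 cells, with at most 2 per cell. All 11 and 3 cells with mdh6 had a single UMI. Empty wells were not analysed here, so how many single UMIs would be seen in a well without the transcript was not tested.

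me3 was the sole bundle sheath gene with more than a few UMIs. In the pre-meiotic pool it had 1 UMI in 14 cells and 2 or more in 10, with at most 5. In the bHLH pool it had 1 UMI in 16 cells and 2 or more in 9, with at most 3. Among cells with the gene the median level was 40.4 and 34.8 TPM, against 110 and 94.4 TPM for ppdk1 in its own cells. For me3 these are levels that 1 or a few UMIs give at the depth of those cells.

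The rbcS genes had almost no UMIs. GRMZM2G113033 had 3 UMIs, in 3 cells of the pre-meiotic pool, and ssu1 had 1 UMI, in 1 cell of that pool. Neither had a UMI in the bHLH pool, where by a limit of 3 counts 0 of 96 cells allows a share of up to 3.12% of cells with a UMI and 0 UMIs a level of up to 0.92 TPM over the pool. This limits cells with a UMI at this depth, not cells that express the gene. Of the 3 cells with GRMZM2G113033, 2 also had a UMI of me3, and the single ssu1 cell had 4 UMIs of ppdk1 and none of me3. Genes of this family resemble each other, and how reads that fit several copies were counted is not given in the sources used here, so both counts are uncertain.

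More cells gave a UMI of ppdk1 and me3 where depth was high. In the 32 shallowest cells of the pre-meiotic pool (953 to 18513 UMIs) ppdk1 was seen in 23 cells and me3 in 2. In the middle 32 they were seen in 23 and 10, so ppdk1 did not rise there, and in the 32 deepest (38646 to 88243 UMIs) in 27 and 12. Of the bHLH pool the shallowest 32 cells (4699 to 19706 UMIs) gave 18 for ppdk1 and 2 for me3. Its middle 32 gave 22 and 10, and its deepest 32 (40097 to 148894 UMIs) gave 30 and 13. Even in the deepest cells pep1 was seen in 8 and 3 of 32, GRMZM2G121878 in 9 and 6, and mdh6 in 4 and 2. Split at the median depth of each pool, me3 was seen in 19 of the 48 deeper cells of either pool and in 5 and 6 of the 48 others, and ppdk1 in 39 and 42 of the deeper and 34 and 28 of the others. Thinned to 10000 UMIs per cell, which left 77 and 83 cells, ppdk1 would be expected in 53.8% and 54.6% of cells and me3 in 11.2% in each pool.

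**Figure D3:**
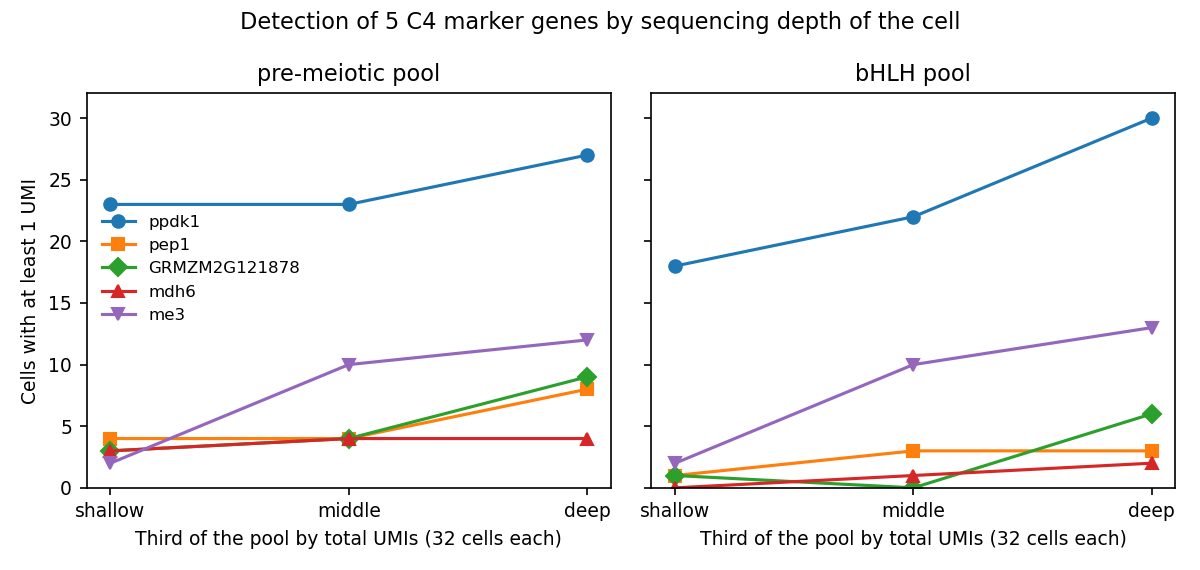
Number of cells with at least 1 UMI of 5 marker genes in the 32 shallowest, 32 middle and 32 deepest cells of each pool. ppdk1 goes from 23 through 23 to 27 cells in the pre-meiotic pool and from 18 through 22 to 30 in the bHLH pool. me3 goes from 2 through 10 to 12 and from 2 through 10 to 13.

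Between the pools the summed UMIs of ppdk1 and me3 lay closer together than those of the sparser mesophyll genes, which had fewer in the bHLH pool. The ratio of summed UMIs, bHLH pool over pre-meiotic pool and scaled to the pool totals, was 0.885 for ppdk1 (0.754 to 1.04) and 0.813 for me3 (0.505 to 1.30). It was 0.379 for pep1 (0.153 to 0.855), 0.416 for GRMZM2G121878 (0.167 to 0.957) and 0.252 for mdh6 (0.0452 to 0.955). The last 3 ratios rest on 9, 9 and 3 UMIs in the bHLH pool, and these intervals hold no error between transfections. By the same summed UMIs the median eligible gene model (defined with the mean levels that follow) stood higher in the bHLH pool by 0.23 on the log2 scale.

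By the mean of TPM over cells, ppdk1 stood at 138 ± 194 TPM (SD over cells, n = 96) in the pre-meiotic pool and 88.4 ± 89.9 (n = 96) in the bHLH pool. That gap was wider than the gap in summed UMIs, and the cells with few genes differed between the pools. The 22 cells under 2000 genes in the pre-meiotic pool averaged 171 TPM of ppdk1 on 13 UMIs in all. By summed UMIs they stood at 68.3 TPM, beside 108 TPM in the other 74 cells of that pool. The 2 cells under 2000 genes in the bHLH pool had none. Over the cells with at least 2000 genes the means were 128 and 90.3 TPM (n = 74 and 94). ppdk1 was the one marker gene that reached the minimum for a ratio between pools, which asked for a UMI in 25% or more of a pool's cells at a mean of 50 TPM or more. Its log2 ratio of mean TPM plus 10 was -0.85 relative to the median of the 1775 gene models that reached it. That lies short of the size of 1 used to call a gene, which 22.4% of those models passed in either direction (15.7% lower and 6.76% higher in the bHLH pool). Averaged from the deposited values as they stand, the ratio was -1.06, past that size.

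Each of the 4 mesophyll genes was found in fewer bHLH pool cells than pre-meiotic pool cells. Among gene models seen in 10 to 30 cells of both pools together, as pep1, GRMZM2G121878 and mdh6 were, 42.3% had that direction. These 3 genes had no more than 50% as many cells there, which held for 19.2% of such models. For models seen in 120 to 170 cells, the class of ppdk1, 16.6% had that direction and 0.102% no more than 50% as many cells, and ppdk1 differed by 3 cells. For models seen in 40 to 60 cells, the class of me3, the shares were 34.5% and 6.35%, and me3 was seen in 1 cell more there. Without the cells under 2000 genes, pep1 was in 16 of 74 and 7 of 94 cells, GRMZM2G121878 in 15 and 7, and mdh6 in 11 and 3.

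Most cells with a sparse mesophyll gene also had ppdk1, at a higher share than cells without that gene except for GRMZM2G121878 in the pre-meiotic pool. In the pre-meiotic pool ppdk1 was also present in 15 of 16 cells with pep1, in 12 of 16 with GRMZM2G121878 and in 11 of 11 with mdh6. It was present in 72.5% of the 80 cells without pep1, in 76.2% of the 80 without GRMZM2G121878 and in 72.9% of the 85 without mdh6. For the bHLH pool the counts were 6 of 7, 7 of 7 and 3 of 3, beside shares of 71.9%, 70.8% and 72.0% in the cells without the respective gene. Cells with both ppdk1 and pep1 were deeper than the rest, with medians of 34991 against 25524 UMIs in the pre-meiotic pool and 42688.5 against 28009 in the bHLH pool. The part of depth in this overlap was not tested. Among the 48 cells above the median depth, 9 of 10 cells with pep1 had ppdk1 in the pre-meiotic pool, beside 30 of 38 without pep1, and 4 of 4 in the bHLH pool, beside 38 of 44. pep1 and GRMZM2G121878 shared 4 cells and 2 cells of these pools.

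The bundle sheath gene me3 did not keep apart from the mesophyll genes. ppdk1 was seen in 18 of the 24 cells with me3 in the pre-meiotic pool (75.0%) and in 55 of the 72 without it (76.4%). Of the bHLH pool's cells it was seen in 20 of 25 (80.0%) and in 50 of 71 (70.4%). Cells with me3 were deeper, with medians of 37564 against 22222.5 UMIs in the pre-meiotic pool and 40097 against 24973 in the bHLH pool. Above the median depth ppdk1 was in 15 of 19 cells with me3 and 24 of 29 without it in the pre-meiotic pool. In the bHLH pool these counts were 16 of 19 and 26 of 29, with the lower share in cells with me3. At or below the median depth they were 3 of 5 and 31 of 43, then 4 of 6 and 24 of 42. The part of depth was not tested. The median level of ppdk1 in cells with me3 was 51.3 TPM against 71.8 TPM in cells without it in the pre-meiotic pool, and 74.8 against 61.3 TPM in the bHLH pool. The direction differed between the pools, and in each the ranges of both groups began at 0 and overlapped.

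me3 and pep1, markers of different cell types, met in 7 of 16 pep1 cells of the pre-meiotic pool and in 3 of 7 such cells of the bHLH pool. me3 was seen in 17 of the 80 cells without pep1 in the former pool and in 22 of 89 in the latter. Among the 32 deepest cells of the pre-meiotic pool, pep1 was seen in 5 of 12 cells with me3 and in 3 of the 20 without it. Among those of the bHLH pool it was seen in 2 of 13 and in 1 of 19. Above the median depth the counts were 6 of 19 and 4 of 29 in the former pool, and 2 of 19 and 2 of 29 in the latter. These overlaps rest on few cells.

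**Figure D4:**
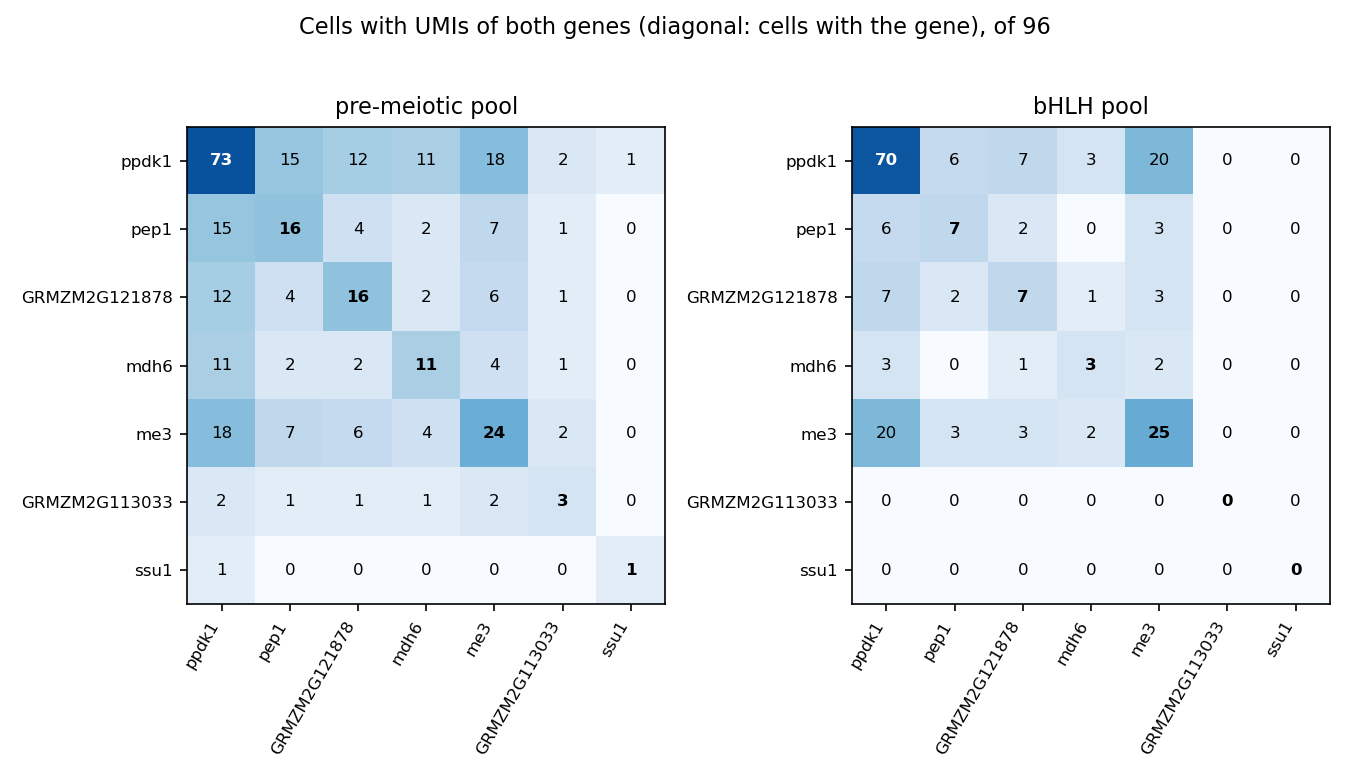
Number of cells with UMIs of both genes for each pair of the 7 marker genes, with the number of cells holding the gene on the diagonal, in each pool of 96 cells, with shade by the square root of the count. ppdk1 and me3 share 18 cells in the pre-meiotic pool and 20 in the bHLH pool, and pep1 and me3 share 7 and 3.

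Counted by cell type, UMIs of both sides occurred in 22 cells of the pre-meiotic pool (22.9%, 15.0% to 32.6%) and 20 of the bHLH pool (20.8%, 13.2% to 30.3%). Mesophyll UMIs alone occurred in 55 and 51 cells, bundle sheath UMIs alone in 4 and 5, and neither in 15 and 20. The cells with both had a median of 42812 and 42714 UMIs, and those with neither 18513 and 10045. Of the cells with a bundle sheath UMI, 84.6% and 80.0% had a mesophyll UMI, beside 78.6% and 71.8% of the cells without one. Without ppdk1 these shares were 57.7% against 30.0% in the pre-meiotic pool and 20.0% against 12.7% in the bHLH pool, cells with both numbered 15 and 5, and bundle sheath UMIs alone occurred in 11 and 20. The cells with a bundle sheath UMI had median depths of 40446 and 40097 UMIs, above the pool medians. With ppdk1 counted, 19 of 21 and 16 of 19 such cells above the median depth had a mesophyll UMI. Beside these stood 23 of 27 and 26 of 29 cells without a bundle sheath UMI. At or below the median depth the counts were 3 of 5 and 4 of 6, beside 32 of 43 and 25 of 42. In each pool the direction differed between these depth classes. At the depth of these libraries the 7 genes did not sort the protoplasts into mesophyll and bundle sheath cells, and no cell was given a type from them.

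Few cells held many of the 7 genes. In the pre-meiotic pool 38 cells had 1 of them, 28 had 2, 11 had 3, 3 had 4 and 1 had 5. Of the bHLH pool 48 cells had 1, 23 had 2, 2 had 3 and 3 had 4. The cell with 5 held 2 UMIs of ppdk1, 2 of me3 and 1 each of pep1, GRMZM2G121878 and mdh6, in 42773 UMIs. The deepest cell of the series, with 148894 UMIs, had 21 UMIs of ppdk1, 2 of GRMZM2G121878 and 1 each of mdh6 and me3, and none of pep1.

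Genes of related enzymes were often seen in more cells than the C4 markers themselves. me2 (GRMZM2G122479), by its symbol a malic enzyme gene, was seen in 49 and 63 cells, at means of 41.9 and 48.5 TPM, against 24 and 25 cells and 17.5 and 10.7 TPM for me3. It was present in 16 of the 24 and 17 of the 25 cells with me3. me4 (GRMZM2G118770) was seen in 1 cell of each pool. The malate dehydrogenase genes mdh4 (GRMZM2G415359, also named CYTMDH) and mdh2 (GRMZM2G154595) were seen in 50 and 40 and in 38 and 26 cells, against 11 and 3 for mdh6. For ppdk the order was the opposite, since PPDK2 (GRMZM2G097457, also named CYPPDKZM2) had 1 UMI in all. pep4 (GRMZM2G473001), of the family of pep1, was seen in 10 and 6 cells. GRMZM2G074122, listed with the pep genes but without a name in the reference, was seen in 30 and 17 cells, against 16 and 7 for pep1. Of the 9 genes on the list of related enzymes, GRMZM2G348512 was seen in the most cells, 59 and 65. Of the 9, 6 had fewer cells in the bHLH pool and 2 had more. Over all gene models with a UMI, 34.3% had fewer cells there and 57.9% more, and over those seen in 1 to 9 cells of both pools together 34.5% and 54.8%. No share was computed for models matched to each list, and the counts by list are descriptions of few genes.

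Among the further genes of the C4 cycle and its regulators, pck2 (GRMZM5G870932), by its name a phosphoenolpyruvate carboxykinase gene, was the most widespread. A further gene ID listed with the carboxykinase names was not among the gene models of the series. pck2 was seen in 90 cells of the pre-meiotic pool and 79 of the bHLH pool, and its mean was 324 TPM in the former and 116 TPM in the latter. Its centred log2 ratio was -1.67, past the size of 1 that 15.7% of the eligible models passed in that direction. All 24 me3 cells of the pre-meiotic pool had pck2, as had 66 of the 72 others, and in the bHLH pool 21 of 25 and 58 of 71. GRMZM2G094712, without an informative name, was seen in 47 and 80 cells, with a centred log2 ratio of 0.95, short of that size. pdrp1 (GRMZM2G131286), named for the protein that regulates pyruvate orthophosphate dikinase, had 10 and 2 UMIs. Of the genes named for phosphoenolpyruvate carboxylase kinase, PPCK2 (GRMZM2G135091) was seen in 40 and 25 cells, PPCK3 (GRMZM2G096753) in 22 and 14, PPCK4 (GRMZM2G049541) in 20 and 12 and PPCK1 (GRMZM2G178074) in 3 and 5. On this list 7 of 14 genes had fewer cells in the bHLH pool and 6 had more. Over all gene models with a UMI those shares were 34.3% and 57.9%.

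The genes of the light reactions found among the gene models were seen about as widely as the median gene model. As every model had a UMI in some cell, a gene without any could not be counted. The 14 genes named for light-harvesting or photosystem proteins had medians of 3 and 2 cells, beside 3 in each pool over all gene models. None of them was seen in 48 or more cells of a pool, beside 5.02% and 7.86% of all gene models. The widest were psah1 (GRMZM2G451224), a photosystem I subunit gene, with 41 and 26 cells, and PSBQ1 (GRMZM2G021617), a photosystem II oxygen-evolving subunit gene, with 24 and 9. No other was seen in more than 8 cells of a pool. In all 10 of the 14 were found less widely in the bHLH pool and 4 more widely. Over all gene models with a UMI those shares were 34.3% and 57.9%. On the list of light response and chlorophyll genes 5 of 7 were in fewer cells of the bHLH pool and 2 in more, beside the same shares. Its PhyB1 (GRMZM2G124532), a gene for the photoreceptor phytochrome B, was seen in 21 and 4 cells and oy1 (GRMZM2G419806), a chlorophyll synthesis gene, in 6 and 11. The Calvin cycle genes gpb1 (GRMZM5G845611) and gpa1 (GRMZM2G337113) were seen in 9 and 7 and in 5 and 8 cells.

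Genes on the epidermal and vascular lists were often seen in cells that also had ppdk1. Whether these genes mark a cell type in these protoplasts was not tested. The epidermal gene ocl1 (GRMZM2G026643) was seen in 37 and 53 cells, and ppdk1 was present in 75.7% and 73.6% of them, beside 76.3% and 72.1% of the cells without ocl1. ocl3 (GRMZM2G116658), of the same family by its symbol, was seen in 8 and 10. Over all gene models with a UMI, 57.9% were in more cells of the bHLH pool and 34.3% in fewer. On the epidermal list 3 of 4 genes were in more cells of the bHLH pool and none in fewer. The summed level of that list per cell ran from 0 to 284 TPM in the pre-meiotic pool and from 0 to 286 TPM in the bHLH pool. On the vascular list, where 3 of 7 were less widely found in the bHLH pool and 4 more widely, the summed level ran from 0 to 1015 and from 0 to 406 TPM. Its sh1 (GRMZM2G089713) and sut2 (GRMZM2G145107), for sucrose synthase and a sucrose transporter, were seen in 41 and 51 and in 46 and 45 cells. Cells with sh1 had ppdk1 in 87.8% and 80.4% of cases, beside 67.3% and 64.4% without sh1, and cells with sut2 in 89.1% and 82.2%, beside 64.0% and 64.7% without sut2. me3 was seen in 37.0% and 40.0% of cells with sut2, beside 14.0% and 13.7% without it. The gap was smaller for sh1, at 34.1% and 31.4% with it, beside 18.2% and 20.0% without it. For the epidermal gene ocl1 the direction differed between the pools, at 32.4% and 24.5%, beside 20.3% and 27.9%. Cells with sut2 were deeper, at medians of 38680 against 17861 UMIs and 37116 against 20142 UMIs, and so were those with ocl1, at 36236 against 17209 and 36672 against 20142. The part of depth in these shares was not tested. The phloem sucrose transporter gene sut1 (GRMZM2G034302) was seen in 7 and 6 cells, and ppdk1 was present in 7 and 5 of these and me3 in 2 and 2. The part of cell type in the differences between pools was not tested.

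**Figure D5:**
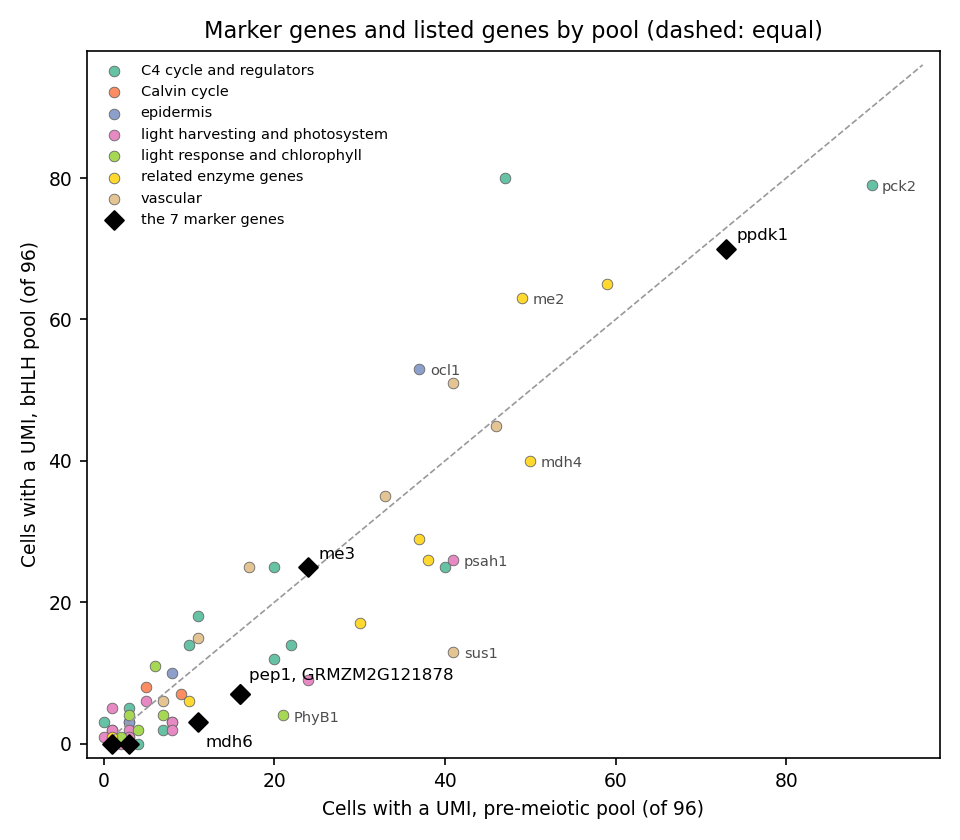
Number of cells with a UMI in the pre-meiotic pool (x axis) and the bHLH pool (y axis), each of 96, for the 7 marker genes (diamonds) and the genes of 7 lists (circles), with equality dashed. pep1 and GRMZM2G121878 coincide at 16 and 7 cells, me2 lies at 49 and 63, and pck2 at 90 and 79.

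No gene model followed ppdk1 closely from cell to cell. The Pearson correlation of log2(TPM + 10) over the 96 cells of a pool was computed for the 962 gene models that reached that minimum in both pools. Ranked by the lower of their values in the pools, the first were GRMZM2G026470 (0.37 in the pre-meiotic pool and 0.41 in the bHLH pool), GRMZM2G090904 (0.38 and 0.36) and GRMZM2G039886 (0.32 and 0.27). ppdk1 itself correlated with log2 total UMIs at -0.09 and 0.30, and GRMZM2G026470 at 0.03 and 0.39, so depth is shared by these points in the bHLH pool. For me3 the first were GRMZM2G123541 (0.28 and 0.27), GRMZM2G067225 (named aos, 0.29 and 0.21) and GRMZM2G449709 (0.26 and 0.21), values too weak in counts this sparse to set these genes apart.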

How the data were processed

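Libraries were made with CEL-seq2, per the labels' protocols. HISAT2, SAMtools and UMI-tools and the build B73 RefGen_v3 are named in the submitters' processing notes. No versions, annotation or filter are named there. The authors' deposited values were handled as a scaled signal, since a cell sums to between 65502 and 10967874. They equal UMI counts times 1000000 divided by cell totals recycled down the rows. Undoing this made 1001042 of 1001042 nonzero values whole (within 0.001 UMI), and TPM was recomputed within each cell. The recovery was tested on simulated data. The design assumed TPM per cell, and its comparisons were kept. Beside its split of the cells at the median depth, a split into 3 depth classes was added after the data were seen. All cells passed the minimum of 500 genes (the fewest were 605 and 1541). No doublet caller was run, as each sample is labelled a single protoplast.

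Shares have exact Clopper-Pearson intervals, summed UMIs exact Poisson intervals and their ratios exact binomial ones, in scipy 1.17.1 under Python 3.11.15. Thinned shares are hypergeometric expectations, leaving out 10 and 1 cells under 5000 UMIs or 19 and 13 under 10000. The log2 ratio uses a pseudocount of 10 TPM, which shrinks low genes, and is relative to the median of eligible models (0.26). The members and lists were chosen with earlier results of these data known. Names come from the table of assembly Zm-B73-REFERENCE-NAM-5.0, which has a row for 16091 of the 41187 row names. Its build differs, so no coordinates are given. The 7 lists matched 57 genes, and 9 matches whose names belong to another gene were left out after the names were seen. Named are the 7 markers, for ppdk1 and me3 the 3 models with the highest correlation, the 2 members of each list seen in most cells, and genes named for a marker's enzyme. The PPCK genes, pdrp1, sut1 and GRMZM2G074122 fall outside this rule and were chosen after their values were seen. Sequences of the genes were not used here.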

Additional observations from a re-analysis of the deposited data

How the results depend on the processing

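Shares of cells depend on depth and on the number of UMIs asked for. For ppdk1, 76.0% and 72.9% of cells (pre-meiotic pool, then bHLH pool) became 37.5% and 32.9% at 5000 UMIs per cell, 53.8% and 54.6% at 10000, and 51.0% and 53.1% when 2 UMIs were required. For me3, 25.0% and 26.0% became 5.58% and 5.14%, 11.2% and 11.2%, and 10.4% and 9.38%. Cells with UMIs of both cell types, 22.9% and 20.8%, became 2.37% and 1.92%, 7.24% and 6.28%, and 8.33% and 6.25%, and without ppdk1 5.21% in the bHLH pool. Leaving out cells under 2000 genes moved none of the shares beyond its counting interval.

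The deposited values averaged as they stand gave ppdk1 means of 265 and 155 TPM and me3 means of 39.1 and 16.1 TPM, since most were divided by another cell's total. The most abundant gene model held 33.3% of all UMIs in the pre-meiotic pool and 23.8% in the bHLH pool. With this model left out of the totals, the ppdk1 means were 188 and 113 TPM. By summed UMIs that of the pre-meiotic pool was 106 TPM. The centred log2 ratio of ppdk1, -0.85, was -0.39 by summed UMIs, -0.46 with a pseudocount of 100 TPM, -0.59 without centring and -0.61 when centred on all gene models with a UMI. It was -1.06 with the deposited values, past the size of 1 for a call, and -0.93 with a pseudocount of 1 TPM. Single cells decide the means of sparse genes. Without the cell with the highest level, the mean of GRMZM2G121878 was 6.58 in place of 11.2 TPM and 1.04 in place of 2.02 TPM. That of mdh6 in the bHLH pool was 0.22 in place of 0.53 TPM, and that of GRMZM2G113033 in the pre-meiotic pool 0.36 in place of 4.33 TPM. The mean of ssu1 rests on its 1 cell. Leaving out the most abundant model moved the median log2 ratio of eligible models from 0.26 to 0.11. No paired analysis was possible because protoplast numbers only count cells and no result comes from a test.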
